A study of Arabidopsis thaliana with 15 samples.

Results

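Rosettes of the Arabidopsis thaliana double mutant ref4-3 cdk8-1 were compared with rosettes of the single mutant ref4-3, to see which transcripts change when the kinase CDK8 is lost from plants that already carry a dwarfing mutation in the Mediator subunit MED5B. The comparison rests on the 6 libraries labelled with these 2 genotypes, 3 of each, out of 15 in the study, and on the 18935 of 33601 genes that exceeded 1 CPM (a gene's counts scaled to library size) in at least 3 of the 15 libraries. The other genotypes were the wild type (WT), cdk8-1 and ref4-1, a further MED5B allele, each with 3 libraries, and every line was in the Columbia-0 accession. All plants grew at 23 °C under 16 h of light and 8 h of dark. Each library held RNA from 5 pooled whole rosettes taken at 20 days, 6.5 h after dawn. Both groups of the main comparison therefore carry ref4-3, and they differ by the cdk8-1 allele as far as the labels tell.

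Mediator is the large complex that carries signals from DNA-bound transcription factors to RNA polymerase II. CDK8, with its cyclin partner and the subunits MED12 and MED13, forms a kinase module that docks on and off the core complex and can either block or favour transcription. MED5B sits in the tail, the part that meets transcription factors, and ref4-3 is a point mutation in it that acts semidominantly, stunts the rosette and lowers phenylpropanoids, the phenolic compounds from which lignin and leaf sunscreens are made. In Arabidopsis, CDK8 and its module are also known for roles in immunity, cold responses and development.

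Levels are normalised CPM, with library sizes scaled by the trimmed mean of M-values (TMM). A change is given as log2 fold ± SE, from n = 3 libraries of each genotype. Adjusted p is the Benjamini-Hochberg value from edgeR's quasi-likelihood test over all 18935 genes, and "rose" and "fell" are used for adjusted p under 0.05. The 6 libraries held 11757969 to 15080524 counts in genes, so that 1 count was worth 0.0663 to 0.0850 CPM. Reads that could belong to more than 1 gene amounted to 4.18 to 6.67% of gene counts in ref4-3 and 2.40 to 2.74% in ref4-3 cdk8-1, thus without overlap of both groups. The same share ran from 3.03 to 5.50% within WT and from 1.87 to 4.99% within cdk8-1. Of the genes that overlap another annotated gene, 30.8% were called with a median change of 0.017, against 34.0% with a median of 0.0045 among genes that overlap none. All 25 listed photosynthesis genes, as markers of green rosette tissue, were detected. Seed storage and root hair markers were at or near 0 (SESA1, CRA1, OLEO1 and COBL9, with at most 6 counts in any library). The other root marker, PYK10, was detected, at 127 to 150 CPM in ref4-3 and 167 to 207 CPM in ref4-3 cdk8-1. Of the 4 flower markers, 3 (AP3, PI and SEP3) stayed below the filter. The fourth, AG, was tested at 0.3495, 0.163 and 0.153 CPM in ref4-3 and 0.572, 0.191 and 0.365 in ref4-3 cdk8-1 and did not pass (0.68 ± 0.62, adjusted p = 0.44).

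The targeted gene was examined first. CDK8 (AT5G63610, chromosome 5, 25463362 to 25465922, minus strand, TAIR10.1), also named cyclin-dependent kinase E;1, stood at 22.5, 21.2 and 22.7 CPM in the ref4-3 libraries and at 6.58, 5.27 and 4.38 CPM in ref4-3 cdk8-1. Every double mutant library was below every ref4-3 library, with a change of -2.03 ± 0.12 (adjusted p = 7.37e-10), and the residual level resembled the 4.51 ± 0.1700 CPM (SD, n = 3) of the cdk8-1 single mutant. Of its module, the 2 cyclin C genes CYCC1;1 and CYCC1;2 rose slightly, by 0.22 ± 0.082 and 0.22 ± 0.072. Those 2 calls were lost with adjusted p up to 0.189 and 0.0792 in 11 and 6 of the alternatives tried. MED12 (0.03 ± 0.091) and MED13 (0.00 ± 0.098) did not pass the test. In the tail, MED5B itself (AT2G48110, chromosome 2, 19673293 to 19679711, plus strand) stood at 30.2, 30.7 and 28.9 CPM in ref4-3 and at 23.7, 22.9 and 22.7 CPM in the double mutant, a change of -0.37 ± 0.09 (adjusted p = 0.00341) with no overlap. MED16, another tail subunit, fell (-0.25 ± 0.085), a call lost in 4 alternatives. The other 6 tail genes tested did not pass. DJC66, a gene for a chaperone with a DnaJ domain that stands at 14.96 ± 1.81 CPM (SD, n = 3) in WT, was at 367, 345 and 348 CPM in ref4-3 and at 217, 208 and 237 CPM in ref4-3 cdk8-1. It fell (-0.68 ± 0.093, adjusted p = 1.59e-05) and stayed far above its WT level.

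Loss of CDK8 in ref4-3 changed 6243 genes, which is 33.0% of those tested. Of these, 3017 rose (15.9%) and 3226 fell (17.0%), and 1432 (7.56%) changed at least 2-fold. Library scaling bears on the split: with library totals alone in place of TMM, 2379 rose and 3773 fell. The median change over all genes was 0.0078. At 8864 of the 18935 genes, called or not, the libraries of both genotypes did not overlap. Groups that lie apart are therefore common, and such statements below are to be read against that number. The lists of genes described next were chosen with earlier results of these data known, and each count of members is to be read against these percentages. The strip plot of list members orders the lists by their medians, from the defensins at -3.05 and salicylic acid synthesis at -2.35 to lipid transfer, cold and auxin genes near 0.9.

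**Figure D1:**
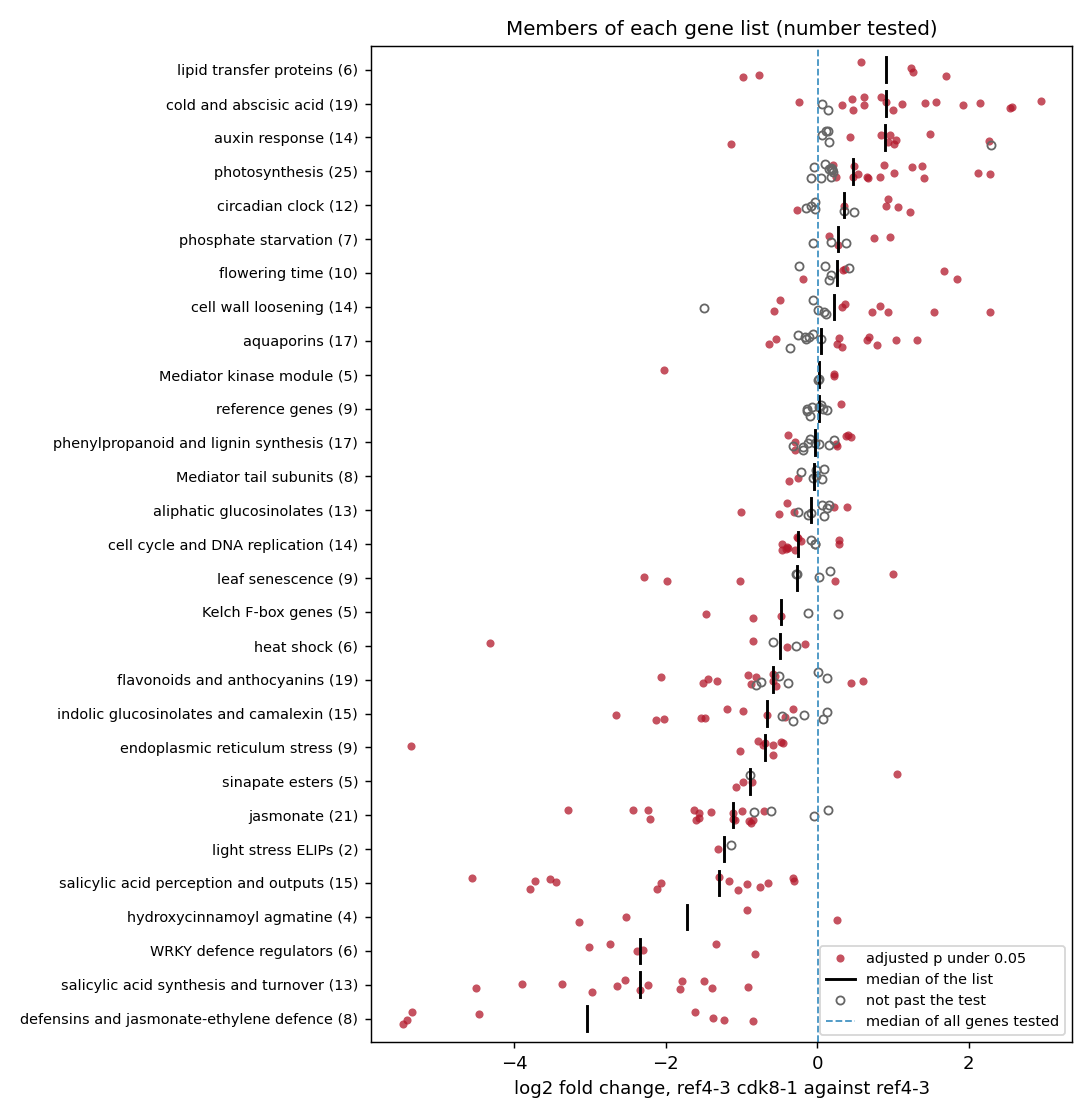
Log2 fold change (x axis) of each tested member of 29 gene lists (y axis, number tested in brackets) in ref4-3 cdk8-1 against ref4-3, with 3 libraries in each group. Filled points passed adjusted p 0.05, open points did not, black bars are list medians and the dashed line is the median of all 18935 genes. The defence lists lie at the bottom, with every tested member of the salicylic acid, WRKY regulator and defensin lists below 0.

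Among well expressed genes without overlap of the groups, the 12 greatest falls were led by AT2G44240, a gene of the DUF239 family. It stood at 10.6, 13.4 and 29.4 CPM in ref4-3 and at 0.0715, 0.0635 and 0 CPM in the double mutant. With only 2 counts left in the 3 double mutant libraries against 700 in ref4-3, the ratio of normalised counts was 383 (95% counting interval 106 to 3170). AT4G01390, a gene for a TRAF-like protein, went from 8.67, 11.9 and 11.6 to 0.143, 0.191 and 0.07303 CPM and changed by -6.18 ± 0.39 (adjusted p = 7.53e-09). LUP5, a triterpene synthase gene, changed by -5.86 ± 0.50 (adjusted p = 5.89e-08) from 14.4, 7.51 and 19.8 CPM, where the ref4-3 libraries spread over more than 2-fold but lay above every double mutant library. Next came the ankyrin repeat gene AT4G03450 (-5.45 ± 0.32), BIP3, a binding protein of the endoplasmic reticulum (-5.37 ± 0.29), and BG3, which encodes a beta-1,3-glucanase (-5.20 ± 0.35). The list ended with the non-coding AT3G15536 (-4.84 ± 0.41), the natriuretic peptide gene PNP-A (-4.69 ± 0.39), the hydrolase gene AT5G24200 (-4.65 ± 0.33), the subtilase gene SBT3.3 (-4.60 ± 0.23), WRKY38 (-4.56 ± 0.27) and the acireductone dioxygenase gene ARD3 (-4.55 ± 0.27). SBT3.3 is known for priming immune responses in Arabidopsis. It stood at 28.9, 31.2 and 48.05 CPM in ref4-3, at 1.86, 1.14 and 1.46 in ref4-3 cdk8-1 and at 2.12 ± 0.302 (SD, n = 3) in WT.

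The greatest rise was that of AT1G67105, annotated as a non-coding RNA. It was at 0.489, 0.326 and 0.153 CPM in ref4-3 and at 21.4, 18.1 and 15.1 CPM in ref4-3 cdk8-1, a change of 5.76 ± 0.34 (adjusted p = 9.45e-10), while cdk8-1 alone held 0.426 ± 0.513 CPM (SD, n = 3). AT1G11070, a gene for a hydroxyproline-rich glycoprotein, rose by 4.42 ± 0.20 (adjusted p = 4.7e-11) from 0.559, 0.4897 and 0.458 to 10.9, 11.4 and 10.7 CPM. AT1G62510, which encodes a protein of the lipid transfer and storage albumin family, rose by 4.31 ± 0.23 (adjusted p = 3.72e-10) from 1.61, 1.31 and 0.458 to 23.9, 21.8 and 22.3 CPM. In all 3 the double mutant libraries lay close together and far above ref4-3. The late embryogenesis abundant gene AT3G17520 (3.31 ± 0.38) and RD29B (2.95 ± 0.17), both of families known from drying seeds and drought, followed. Then came the unannotated AT2G16367 (2.88 ± 0.23), the kinase gene WNK9 (2.87 ± 0.24), the aspartyl protease gene AT1G62290 (2.86 ± 0.13), the sucrose transporter gene SWEET13 (2.76 ± 0.14) and the ATPase gene DAA1 (2.75 ± 0.16). AT4G36850, a transmembrane protein gene with PQ loops (2.67 ± 0.22), and the cold-induced KIN1 (2.58 ± 0.18) completed the 12.

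Salicylic acid, the hormone of immunity against pathogens that feed on living tissue, stood out among the falling groups. All 13 tested genes of its synthesis and turnover fell, with a median of -2.35, and so did all 15 tested genes of its perception and outputs, with a median of -1.29. DLO2, at 0 counts, was not tested. SARD1, a master activator of this branch, stood at 64.8, 54.3 and 71.00 CPM in ref4-3 and at 7.22, 7.75 and 9.13 in ref4-3 cdk8-1, a change of -2.98 ± 0.14 (adjusted p = 8e-11). ICS1, which catalyses the committed step from chorismate, stood at 38.2, 35.1 and 47.97 against 11.6, 11.7 and 11.8 CPM (-1.78 ± 0.13, adjusted p = 1.26e-08). EDS5, the exporter that moves isochorismate out of the chloroplast, stood at 22.6, 28.9 and 23.9 against 5.86, 5.46 and 4.601 CPM (-2.23 ± 0.15, adjusted p = 3.72e-09), and PBS3, the enzyme that acts on it next, at 29.3, 32.8 and 43.7 against 6.79, 6.22 and 7.81 (-2.35 ± 0.18). None of the 4 had overlapping groups, and in each the double mutant lay below the WT means of 23.95, 19.8, 30.5 and 11.2 CPM, in that order. SARD1 and EDS5 overlap another annotated gene, so their counts carry the limit on ambiguous reads given above. Other named genes under this limit include WRKY33, WRKY53, AT4G01390, SBT3.3, MRD1, REF1, UGT75C1, XCP1, CESA7, KFB39 and KFB50. It holds as well for CYCC1;2, DTX18, C3H1, IAA3, SOT18, HSP101, PAO and PYK10.

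The arm that makes the systemic signal N-hydroxypipecolic acid fell as well, with ALD1 at -3.90 ± 0.37, SARD4 at -1.39 ± 0.099 and FMO1 at -3.37 ± 0.51. Enzymes that remove salicylic acid moved in the same direction as those that make it. The hydroxylase gene DLO1 stood at 51.2, 45.3 and 81.1 CPM in ref4-3 and 2.86, 1.78 and 3.21 in the double mutant (-4.51 ± 0.31, adjusted p = 5.82e-09). Its relative DMR6 (-2.65 ± 0.19) and the glucosyltransferase genes UGT76B1 (-2.54 ± 0.35) and UGT74F2 (-0.92 ± 0.082) fell as well.

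Downstream, the receptor genes NPR1, NPR3 and NPR4 fell, with changes of -0.31 ± 0.067, -0.65 ± 0.074 and -0.33 ± 0.093. EDS1, PAD4 and SAG101, the lipase-like partners upstream of the hormone, fell, with changes of -1.05 ± 0.085, -2.06 ± 0.15 and -0.75 ± 0.091. PAD4 went from 32.1, 25.9 and 35.3 CPM to 8.15, 6.03 and 8.32. The pathogenesis-related genes PR1, PR2 and PR5 are the standard reporters of this pathway. PR1 stood at 235, 242 and 450.2 CPM in ref4-3 and at 31.2, 22.4 and 16.5 in ref4-3 cdk8-1 (-3.72 ± 0.34, adjusted p = 1.57e-07). PR2, a beta-1,3-glucanase, went from 594, 559 and 938 to 53.6, 39.4 and 57.3 CPM (-3.80 ± 0.30, adjusted p = 1.94e-08), and PR5, a thaumatin-like protein, from 1191, 773 and 1305 to 98.9, 72.2 and 112 (-3.53 ± 0.26, adjusted p = 1.12e-08). The ref4-3 libraries differed among themselves by up to 2-fold at these genes, yet the lowest of them exceeded the highest double mutant library in each case. WRKY38, a salicylic acid target with few counts left, went from 13.4, 13.96 and 20.6 to 0.858, 0.508 and 0.657 CPM.

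**Figure D2:**
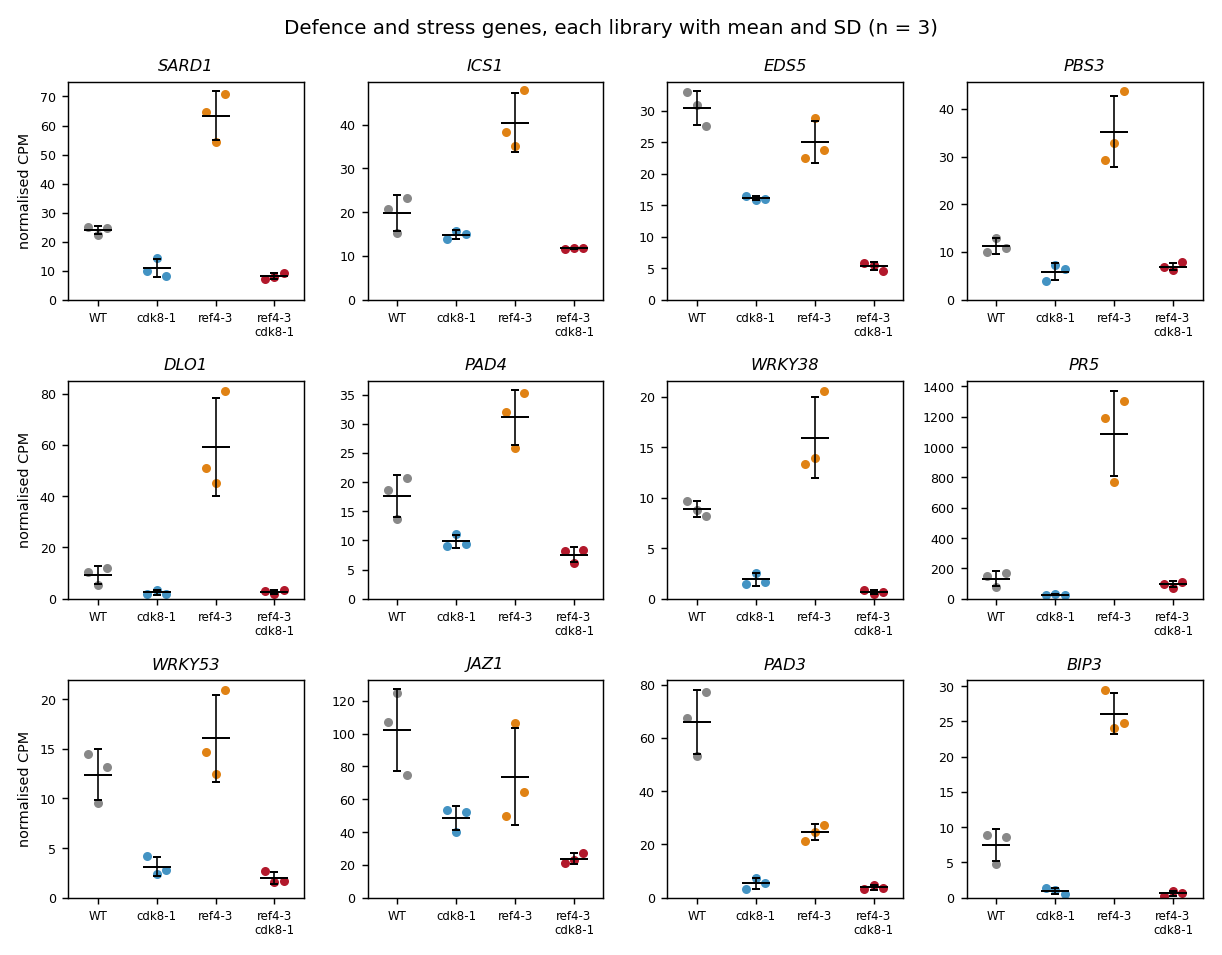
Normalised CPM (y axis, from 0) of 12 defence and stress genes in each library of WT, cdk8-1, ref4-3 and ref4-3 cdk8-1 (x axis), with the mean and SD over 3 libraries. In all 12 panels the ref4-3 cdk8-1 points lie below every ref4-3 point, as with SARD1 at 54.3 or more in ref4-3 and 9.13 or less in the double mutant.

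WRKY transcription factors bind the W-box, with the core TTGAC, and many of them are switched on during defence. All 6 listed regulators fell, with a median of -2.34. WRKY53 went from 14.7, 12.5 and 20.97 CPM in ref4-3 to 2.72, 1.59 and 1.68 in the double mutant (-3.01 ± 0.26, adjusted p = 5.2e-08), WRKY46 from 16.6, 13.5 and 20.97 to 2.22, 2.16 and 3.36 (-2.73 ± 0.21), and WRKY33 from 37.8, 46.03 and 47.1 to 17.9, 16.6 and 17.3 (-1.34 ± 0.11). WRKY40 (-2.38 ± 0.35), WRKY18 (-2.30 ± 0.22) and WRKY6 (-0.82 ± 0.14) completed the set. Each member's groups were apart. Promoter letters were searched on both strands from 250 bases before to 50 after the annotated start of 18378 protein-coding genes. TTGACC or TTGACT was present in 32.5% of all these windows. It was present in 46.4% of the 1064 genes that fell at least 2-fold and in 25.1% of the 311 that rose at least 2-fold. Among genes called at any size, the share was 41.2% of those that fell and 28.2% of those that rose. In the lists, 2 of 13 salicylic acid synthesis genes (15.4%), 5 of 15 perception genes (33.3%) and 2 of 6 WRKY regulators (33.3%) held it, shares below or close to that of all windows. The G-box CACGTG was in 9.01% of all windows, 9.68% of those that fell and 12.5% of those that rose at least 2-fold, and the as-1 core TGACG in 23.8%, 26.5% and 22.8%, in the same order. These shares are descriptions, and a match is not a bound site.

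The 250 bases before the start of EDS5 and WRKY53 were picked for print because each holds 2 such matches, unlike most genes of their lists. The matches are given in capitals (TTGACT or TTGACC, or the reverse GGTCAA). They come from the RefSeq assembly TAIR10.1, 5′ to 3′ along the gene.
EDS5 (plus strand, chr4:18185187-18185436): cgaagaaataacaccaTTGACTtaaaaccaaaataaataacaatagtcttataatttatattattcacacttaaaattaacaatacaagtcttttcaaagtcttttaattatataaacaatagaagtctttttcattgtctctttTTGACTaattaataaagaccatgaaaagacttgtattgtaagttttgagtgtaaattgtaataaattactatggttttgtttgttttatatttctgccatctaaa
WRKY53 (minus strand, chr4:12393983-12394232): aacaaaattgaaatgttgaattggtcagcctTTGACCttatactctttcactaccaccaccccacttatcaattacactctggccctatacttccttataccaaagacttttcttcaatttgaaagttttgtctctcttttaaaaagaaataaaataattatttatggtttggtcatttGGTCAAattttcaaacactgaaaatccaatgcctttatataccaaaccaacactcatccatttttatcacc

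The jasmonate and ethylene branch, which acts against necrotrophs and chewing insects, fell as well. All 8 tested genes of the defensin list fell, with a median of -3.05, and PDF1.1, with at most 2 counts in a library, was not tested. PDF1.2A, a plant defensin, stood at 21.2, 24.3 and 38.3 CPM in ref4-3, 1.72, 0.572 and 1.53 in ref4-3 cdk8-1 and 1198 ± 257 (SD, n = 3) in WT, and it changed by -4.47 ± 0.50 (adjusted p = 1.71e-06). PDF1.3 changed by -5.35 ± 0.66 and PDF1.2C (-5.41 ± 0.77). PDF1.2B left 2 counts in the double mutant, a ratio of 53.6 (95% counting interval 14.5 to 449). These defensin genes are near-identical, so reads may have been split between them. PR4, a chitin-binding protein, went from 85.9, 80.1 and 86.7 to 30.2, 25.3 and 26.9 CPM (-1.62 ± 0.13, adjusted p = 2.1e-08). The ethylene response factor genes ORA59 and ERF1, which switch on defensins, fell, with changes of -1.38 ± 0.28 and -1.23 ± 0.38.

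Agmatine conjugates of hydroxycinnamic acids are antifungal phenolics built by the acyltransferase AACT1 and exported by DTX18. Both genes were near the detection limit in the mutants: AACT1 stood at 1.33, 0.979 and 0.991 CPM in ref4-3 and 0, 0.254 and 0.292 in the double mutant (-2.53 ± 0.62, adjusted p = 0.004) against 33.3 ± 5.34 (SD, n = 3) in WT, and DTX18 fell (-3.14 ± 0.48). Arginine decarboxylase genes feed the pathway with agmatine. ADC2 fell (-0.92 ± 0.19) and ADC1 rose by 0.26 ± 0.064. The GCC-box GCCGCC, the element read by ethylene response factors, was found in 2.62% of all promoter windows and in 2.91% of those of genes that fell at least 2-fold. It was found in 3 of 7 windows of the defensin list and in 1 of 4 of the agmatine list. It is shown in capitals in the 250 bases before PDF1.2A, with 1 match, and AACT1, with 2.
PDF1.2A (minus strand, chr5:17907639-17907888): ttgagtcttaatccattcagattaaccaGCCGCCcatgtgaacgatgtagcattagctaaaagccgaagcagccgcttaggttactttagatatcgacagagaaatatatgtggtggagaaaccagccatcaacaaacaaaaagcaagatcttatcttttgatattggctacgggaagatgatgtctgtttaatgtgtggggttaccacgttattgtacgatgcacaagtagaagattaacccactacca
AACT1 (plus strand, chr5:24608355-24608604): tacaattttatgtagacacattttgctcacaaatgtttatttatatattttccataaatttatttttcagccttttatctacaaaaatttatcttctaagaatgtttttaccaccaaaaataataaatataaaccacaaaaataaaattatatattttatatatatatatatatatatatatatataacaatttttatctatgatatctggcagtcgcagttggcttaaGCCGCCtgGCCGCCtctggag

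Jasmonate is made from membrane lipids by lipoxygenase, allene oxide synthase and allene oxide cyclase, and JAZ proteins repress its responses while being induced by it. Of 21 genes tested, 17 fell and none rose, with a median of -1.11. Lipoxygenase LOX2 stood at 4031, 6028 and 3621 CPM in ref4-3 and 1566, 1655 and 1936 in ref4-3 cdk8-1 (-1.41 ± 0.18, adjusted p = 7.14e-06). The storage protein gene VSP2 went from 1531, 2648 and 1721 to 317, 337 and 622 CPM (-2.21 ± 0.33, adjusted p = 4.82e-05), and JAZ1 from 50.05, 107 and 64.3 to 21.1, 22.8 and 27.5 (-1.63 ± 0.26, adjusted p = 7.83e-05). In all 3 genes the second ref4-3 library was the highest, and no library of one group reached into the other. Of the 8 JAZ genes 7 fell. The receptor gene COI1 (0.14 ± 0.074), the conjugating enzyme gene JAR1 (-0.05 ± 0.091), AOS (-0.61 ± 0.24) and JAZ8 (-0.84 ± 0.63) did not pass. Without ref4-3 replicate 2, 11 of the 21 were called.

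Glucosinolates, the mustard oil precursors, fell in their indolic branch. Of 15 indolic and camalexin genes 10 fell and none rose, with a median of -0.67. PAD3, which makes the antimicrobial camalexin, went from 21.5, 24.8 and 27.4 CPM in ref4-3 to 3.22, 4.699 and 3.58 (-2.66 ± 0.26, adjusted p = 2.55e-07). The regulator gene MYB51 went from 12.9, 11.4 and 12.4 to 4.07, 4.76 and 4.24 CPM (-1.49 ± 0.15, adjusted p = 6.29e-07), and IGMT2, a methyltransferase of the branch, changed by -2.13 ± 0.40. MYB34 and SOT16 did not pass, at 0.13 ± 0.20 and 0.08 ± 0.12. In the aliphatic branch, 2 of 13 rose and 4 fell, with a median of -0.08. There CYP79F2 (-1.01 ± 0.16) and CYP83A1 (-0.50 ± 0.082) fell while the sulfotransferase gene SOT18 (0.40 ± 0.072) and the regulator gene MYB28 (0.23 ± 0.076) rose. The second call among the rises was lost with library totals alone and in some fits without 1 library.

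Protein folding in the endoplasmic reticulum showed a uniform fall. All 9 tested genes of this list fell, with a median of -0.69. BIP1 and BIP2 encode the constitutive Hsp70 chaperones of this compartment, and BIP3 the stress-induced one. BIP3 stood at 29.4, 24.1 and 24.7 CPM in ref4-3 and at 0.214, 0.953 and 0.657 in ref4-3 cdk8-1 (-5.37 ± 0.29, adjusted p = 3.8e-10), against 7.42 ± 2.26 (SD, n = 3) in WT. BIP2 went from 490.1, 479 and 454 to 228, 225 and 247 CPM (-1.02 ± 0.074, adjusted p = 8.75e-09) and BIP1 from 539, 555 and 496 to 322, 313 and 334 (-0.72 ± 0.073, adjusted p = 5.04e-07). The regulator gene BZIP60 (-0.78 ± 0.10), calnexin CNX1 (-0.69 ± 0.077) and the calreticulins CRT1 (-0.46 ± 0.068) and CRT2 (-0.58 ± 0.067) fell by less. BIP1 and BIP2 are near-identical, so their separate values are uncertain. Genes of the heat shock list were partly lower: 4 of 6 fell, and 4 small heat shock members were below the filter. HSFA2, a heat stress factor, went from 7.62, 7.02 and 5.26 to 0.143, 0.318 and 0.511 CPM (-4.32 ± 0.32, adjusted p = 1.03e-08). HSP101 (-0.40 ± 0.12) lost its call in 2 alternatives, and the count was 2 without some single libraries.

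Light harvesting rose. Of the 25 photosynthesis genes 15 rose and none fell, with a median of 0.47. The rises were concentrated in the chlorophyll-binding antenna: 13 of its 14 genes rose with a median of 0.86, against 2 of the 11 genes for Rubisco, its activase, the Calvin cycle and other photosystem subunits, with a median of 0.18. Without ref4-1 replicate 3, which is outside this comparison but shares the estimate of spread, 20 of the 25 were called. More than 2 of the 11 must have passed in that fit, so the contrast in counts depends on this library. LHCB2.1 stood at 216, 201 and 197 CPM in ref4-3 and at 1049.7, 943 and 987 in ref4-3 cdk8-1 (2.28 ± 0.086, adjusted p = 5.49e-12), against 597 ± 49.3 (SD, n = 3) in WT. LHCB2.2 went from 282, 286 and 275 to 1291, 1147 and 1246 CPM (2.13 ± 0.086, adjusted p = 1.42e-11), and LHCB1.2 from 867, 1008 and 854 to 2479, 2308 and 2328 (1.38 ± 0.087, adjusted p = 2.04e-09). These 3 had the smallest adjusted p of the list, and their groups were several-fold apart. LHCB4.1 (0.20 ± 0.079) was the antenna gene that did not pass. Members of the LHCB1 and LHCB2 families are near-identical and may share reads. Summed over the 25 genes, the level was 50519 to 55480 CPM in ref4-3, 71995 to 74294 in ref4-3 cdk8-1, 84059 to 86678 in WT and 100328 to 105430 in cdk8-1. In whole rosettes, more cells of a type and more RNA per cell cannot be told apart. The early light-induced gene ELIP1, a stress relative of the antenna proteins, went the other way, from 82.9, 102 and 114 to 34.8, 35.2 and 50.3 CPM (-1.31 ± 0.13, adjusted p = 3.44e-07).

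Cold and abscisic acid genes, which protect cells against freezing and drying, rose for the most part. Of 19 tested, 16 rose and 1 fell, with a median of 0.91. RD29A stood at 686, 688 and 634 CPM in ref4-3 and at 2004, 1978 and 1950.0 in ref4-3 cdk8-1 (1.56 ± 0.088, adjusted p = 6.53e-10), while WT held 221 ± 21.4 (SD, n = 3). COR47, a dehydrin gene, went from 309, 288 and 271 to 801, 779 and 746 CPM (1.42 ± 0.06, adjusted p = 2.7e-11), and KIN1 from 88.00, 133 and 107 to 584, 645 and 729 (2.58 ± 0.18, adjusted p = 7.04e-09). RAB18, a dehydrin gene that responds to abscisic acid, went from 29.8, 62.5 and 30.4 to 202, 253 and 259 CPM (2.55 ± 0.20, adjusted p = 2.37e-08). All 4 rose with no overlap between groups. The cold regulator gene CBF3 rose from 4.12, 5.63 and 5.19 to 23.01, 21.5 and 21.5 CPM (2.15 ± 0.17, adjusted p = 2.66e-08), and CBF2 by 1.92 ± 0.59, while CBF1, with at most 15 counts in a library, was not tested. The negative regulator gene ABI1 fell (-0.24 ± 0.081), a call lost without some single libraries, and PP2CA (0.06 ± 0.093) and HAI1 (0.14 ± 0.19) did not pass. KIN1 shares near-identical sequence with KIN2 (0.62 ± 0.12).

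CBF factors bind the drought-responsive element with the core CCGAC, and the evening element AAATATCT is known from clock-controlled and cold-induced promoters. CCGAC was present in 16.4% of all promoter windows and in 19.0% of those of genes that rose at least 2-fold, against 12.03% of those that fell as much. Among all genes called higher the share was 16.3%, close to that of all windows. The evening element was present in 6.11% of all windows, in 11.3% of those of genes that rose at least 2-fold and in 6.02% of those that fell as much, and in 10.2% of all genes called higher. CCGAC was in 5 and the evening element in 6 of the 19 windows of the cold list. The 250 bases before RD29A hold 3 CCGAC cores and those before KIN1 hold 1 evening element, here on the reverse strand (AGATATTT), all in capitals.
RD29A (plus strand, chr5:21240467-21240716): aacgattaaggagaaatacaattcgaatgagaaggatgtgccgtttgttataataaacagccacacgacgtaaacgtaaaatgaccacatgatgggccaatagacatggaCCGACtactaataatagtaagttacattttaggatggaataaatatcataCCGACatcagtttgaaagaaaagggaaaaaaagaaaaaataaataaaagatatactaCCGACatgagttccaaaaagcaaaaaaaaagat
KIN1 (plus strand, chr5:5209467-5209716): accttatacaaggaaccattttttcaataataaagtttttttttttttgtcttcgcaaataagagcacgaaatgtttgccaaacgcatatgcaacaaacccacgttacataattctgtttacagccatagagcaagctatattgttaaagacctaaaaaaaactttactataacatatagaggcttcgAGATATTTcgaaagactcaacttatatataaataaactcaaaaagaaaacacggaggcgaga

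Lipid transfer proteins, small secreted proteins of the epidermis, split by member. LTP4 rose from 32.7, 49.6 and 28.2 to 115, 119 and 124 CPM (1.70 ± 0.17, adjusted p = 5.36e-07) and LTP5 from 126, 126 and 114 to 295, 285 and 293 (1.26 ± 0.10, adjusted p = 4.19e-08). LTP3 and LTP1 rose by 1.24 ± 0.14 and 0.58 ± 0.10. LTP6 fell from 104, 99.5 and 104 to 50.7, 54.5 and 50.4 CPM (-0.98 ± 0.097, adjusted p = 3.38e-07) and LTP2 (-0.77 ± 0.12). In all 6 genes the groups were apart, and LTP3 and LTP4 are near-identical neighbours.

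**Figure D3:**
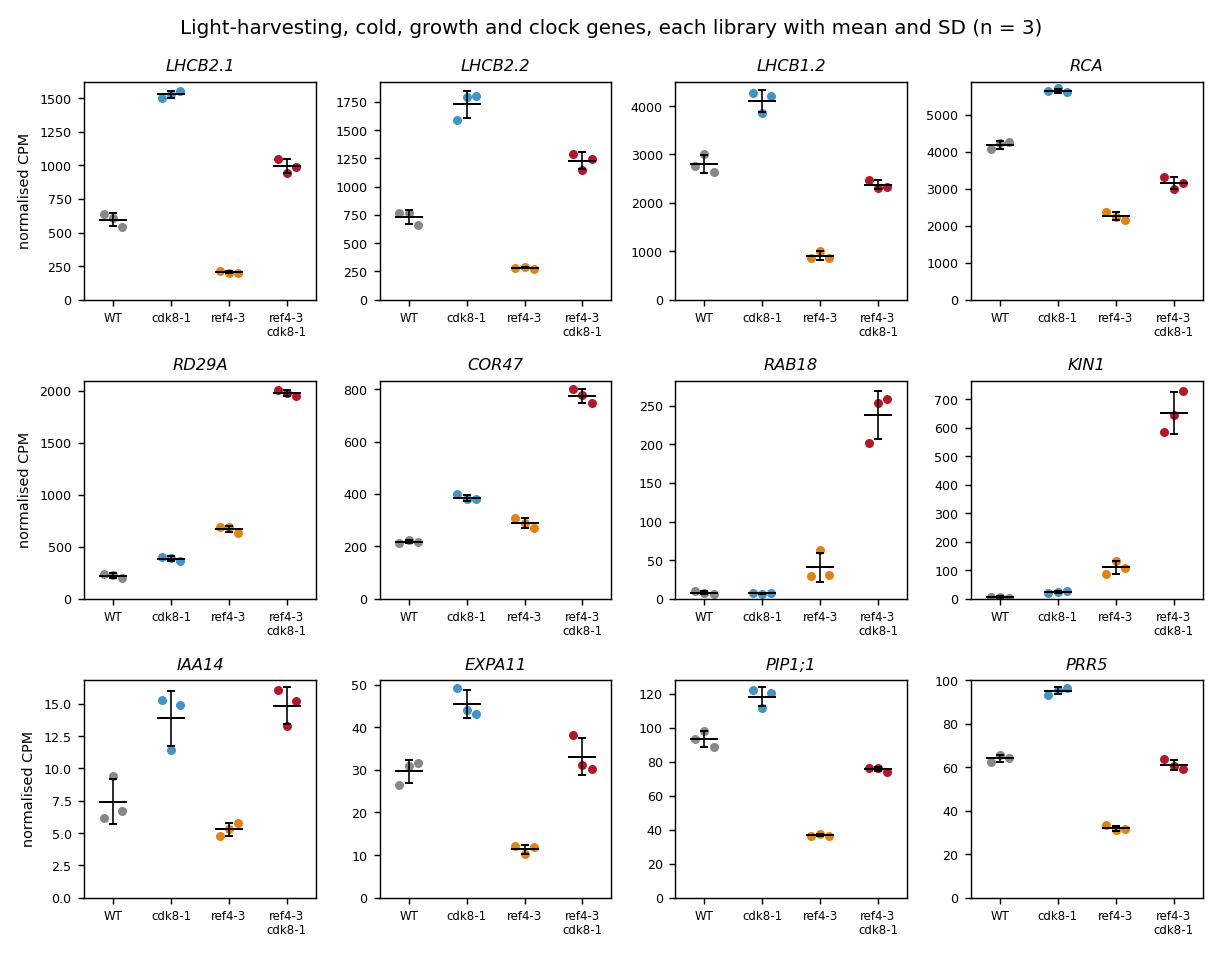
Normalised CPM (y axis, from 0) of 12 genes for light harvesting, cold and abscisic acid responses, growth and the clock in each library of WT, cdk8-1, ref4-3 and ref4-3 cdk8-1 (x axis), with the mean and SD over 3 libraries. The ref4-3 cdk8-1 points lie above every ref4-3 point in all 12 panels. For LHCB2.1 they lie above WT as well, and for RCA below it.

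Growth genes rose in part. Auxin, a hormone of cell expansion, quickly induces AUX/IAA genes, whose proteins damp its own signal. Of 14 auxin response genes 8 rose and 1 fell, with a median of 0.89, and 7 of the 12 AUX/IAA genes were among the rises. IAA14 stood at 4.75, 5.305 and 5.796 CPM in ref4-3 and at 16.1, 13.3 and 15.2 in ref4-3 cdk8-1 (1.49 ± 0.15, adjusted p = 6.35e-07). IAA7 went from 45.7, 37.3 and 41.1 to 95.9, 79.4 and 79.3 CPM (1.03 ± 0.12, adjusted p = 1.64e-06), and IAA3 from 18.24, 18.04 and 19.1 to 36.2, 34.6 and 37.5 (0.97 ± 0.077, adjusted p = 2.72e-08). All 3 had groups apart. The conjugating enzyme gene GH3.5 rose by 0.93 ± 0.15 and its relative GH3.3 fell (-1.14 ± 0.22). IAA6 had 1 count in ref4-3 and 7 in the double mutant, a ratio of 6.39 whose 95% counting interval of 0.822 to 288 holds no change, against 2.07 ± 0.684 CPM (SD, n = 3) in WT.

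Expansins and xyloglucan endotransglucosylases loosen the cell wall. Of 14 such genes 7 rose and 2 fell, with a median of 0.22. The expansin gene EXPA11 went from 12.1, 10.2 and 11.8 to 38.2, 31.1 and 30.1 CPM (1.54 ± 0.13, adjusted p = 3.38e-08), while XTH4 and XTH24 rose by 0.72 ± 0.087 and 0.83 ± 0.13. XTH9 (-0.58 ± 0.094) and XTH22 (-0.49 ± 0.17) fell. Water channels let cells take up water as they expand. Of 17 tested, 8 rose and 2 fell, with a median of 0.05. PIP1;1 went from 36.2, 37.6 and 36.4 to 76.5, 76.2 and 73.97 CPM (1.04 ± 0.063, adjusted p = 1.25e-09), PIP2;1 from 166, 174 and 141 to 264, 239 and 254 (0.65 ± 0.083, adjusted p = 7.01e-06), and PIP2;6 rose by 0.68 ± 0.064. PIP2;2 (-0.55 ± 0.09) and PIP2;3 (-0.63 ± 0.16) fell.

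DNA replication genes moved slightly down. Of 14 cell cycle and replication genes 9 fell and 2 rose, with a median of -0.26. All 6 genes of the MCM helicase, which opens DNA at origins, fell, with changes from -0.47 to -0.22. MCM4 went from 28.6, 28.4 and 28.7 to 22.4, 20.1 and 19.3 CPM (-0.47 ± 0.078, adjusted p = 0.000131), MCM6 fell (-0.42 ± 0.082) and the ribonucleotide reductase gene RNR1 (-0.38 ± 0.073). The mitotic genes CYCB1;2 (0.29 ± 0.094) and CDKB1;1 (0.29 ± 0.11) rose with calls lost under other scaling or without single libraries, and CYCB1;1 and CDKB2;1 did not pass. When any 1 of the 6 libraries was left out, 8 of the 14 were called.

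Phenylpropanoid synthesis starts with phenylalanine ammonia-lyase (PAL), whose proteins are marked for destruction by Kelch F-box (KFB) proteins. Of the 5 KFB genes 3 fell and none rose, with a median of -0.48. KFB39 stood at 289, 254 and 277 CPM in ref4-3 and at 163, 141 and 152 in ref4-3 cdk8-1 (-0.85 ± 0.094, adjusted p = 1.47e-06), but at 7.84 ± 1.32 (SD, n = 3) in WT. KFB50 went from 186, 176 and 178 to 128, 127 and 131 CPM (-0.48 ± 0.063, adjusted p = 8.94e-06) against 68.4 ± 4.199 in WT, and KFB01 from 26.8, 26.5 and 30.8 to 11.01, 9.398 and 10.08 (-1.47 ± 0.11, adjusted p = 1.56e-08) against 9.01 ± 1.56. Thus in the double mutant KFB01 was close to its WT level, KFB50 was above it and KFB39 far above. KFB20 (0.27 ± 0.16) and KFB-CHS (-0.13 ± 0.11), which targets chalcone synthase, did not pass. KFB39 and KFB50 overlap another annotated gene.

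The synthesis genes themselves changed little. Of 17 phenylpropanoid and lignin genes 5 rose and 3 fell, with a median of -0.03. COMT1, the caffeate methyltransferase gene, stood at 76.6, 93.9 and 80.5 CPM in ref4-3 and 111, 112 and 119 in ref4-3 cdk8-1 (0.44 ± 0.078, adjusted p = 0.000219), with 208 ± 10.5 (SD, n = 3) in WT. The methyltransferase gene CCOAOMT1 rose by 0.38 ± 0.061 and the hydroxylase gene C3H1 by 0.41 ± 0.077. HCT and CSE rose by 0.27 ± 0.07 and 0.25 ± 0.07. C4H, the second enzyme of the pathway, fell from 77.6, 89.1 and 84.7 to 67.8, 64.3 and 72.9 CPM (-0.29 ± 0.076, adjusted p = 0.00539), PAL3 fell (-0.39 ± 0.14) and 4CL3 (-0.30 ± 0.095). PAL1 and PAL2, the main PAL genes of Arabidopsis, did not pass at -0.12 ± 0.19 and -0.19 ± 0.11, nor did 4CL1 at 0.02 ± 0.077. 4CL1 stood at 34.04, 44.1 and 40.8 CPM in ref4-3 and 38.5, 40.2 and 41.99 in the double mutant against 100.2, 100.1 and 106 in the WT libraries. The count of falls dropped to 1 without some single libraries. Of 7 xylem markers, from the cells that make most lignin, 4 rose and none fell, with a median of 0.40. Their summed level was 62.6 to 89.6 CPM in ref4-3 and 112 to 149 CPM in ref4-3 cdk8-1, led by the peptidase genes XCP1 (1.55 ± 0.16) and XCP2 (0.72 ± 0.12). Their part in the changes of lignin genes was not tested, and 2 to 4 of the markers were called when single libraries were left out.

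Sinapate esters, the sunscreens of the leaf, are made by a short side branch of the pathway. SNG1, which makes sinapoylmalate, rose from 121, 115 and 101 CPM in ref4-3 to 248, 235 and 217 in ref4-3 cdk8-1 (1.06 ± 0.071, adjusted p = 4.53e-09) and stood at 265 ± 15.02 (SD, n = 3) in WT. UGT84A2, the sinapate glucosyltransferase gene, fell from 208, 213 and 202 to 96.1, 90.4 and 109.6 CPM (-1.08 ± 0.08, adjusted p = 1.26e-08) against 34.6 ± 1.37 in WT. REF1, the aldehyde dehydrogenase gene that makes sinapate, fell from 359.6, 329 and 415 to 194, 176 and 189 CPM (-0.98 ± 0.09, adjusted p = 1.36e-07) against 249 ± 26.1. MYB4, a repressor of the pathway, fell (-0.86 ± 0.081). All 4 had groups apart. UGT84A1 (-0.89 ± 0.47) did not pass and SNG2, a seed enzyme, was below the filter.

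Flavonoids and anthocyanins, the pigments that share these precursors, fell in part. Of 19 genes 11 fell and 2 rose, with a median of -0.59. The anthocyanin glucosyltransferase gene UGT75C1 went from 54.9, 100.2 and 67.7 to 19.8, 26.9 and 34.8 CPM (-1.45 ± 0.24, adjusted p = 0.00012), UGT78D1 from 78.4, 91.2 and 70.6 to 50.9, 52.1 and 56.5 (-0.59 ± 0.10, adjusted p = 0.000192) and the regulator gene GL3 from 7.97, 7.998 and 7.17 to 4.43, 4.699 and 4.09 (-0.80 ± 0.17, adjusted p = 0.00107). Chalcone synthase CHS fell (-0.55 ± 0.16) and flavanone hydroxylase F3H (-0.59 ± 0.13). The flavonol synthase gene FLS1 (0.44 ± 0.11) and its activator gene MYB111 (0.61 ± 0.15) rose. The second ref4-3 library was again the highest at UGT75C1, and DFR (-0.82 ± 0.32) and TT8 (-0.74 ± 0.31) did not pass.

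**Figure D4:**
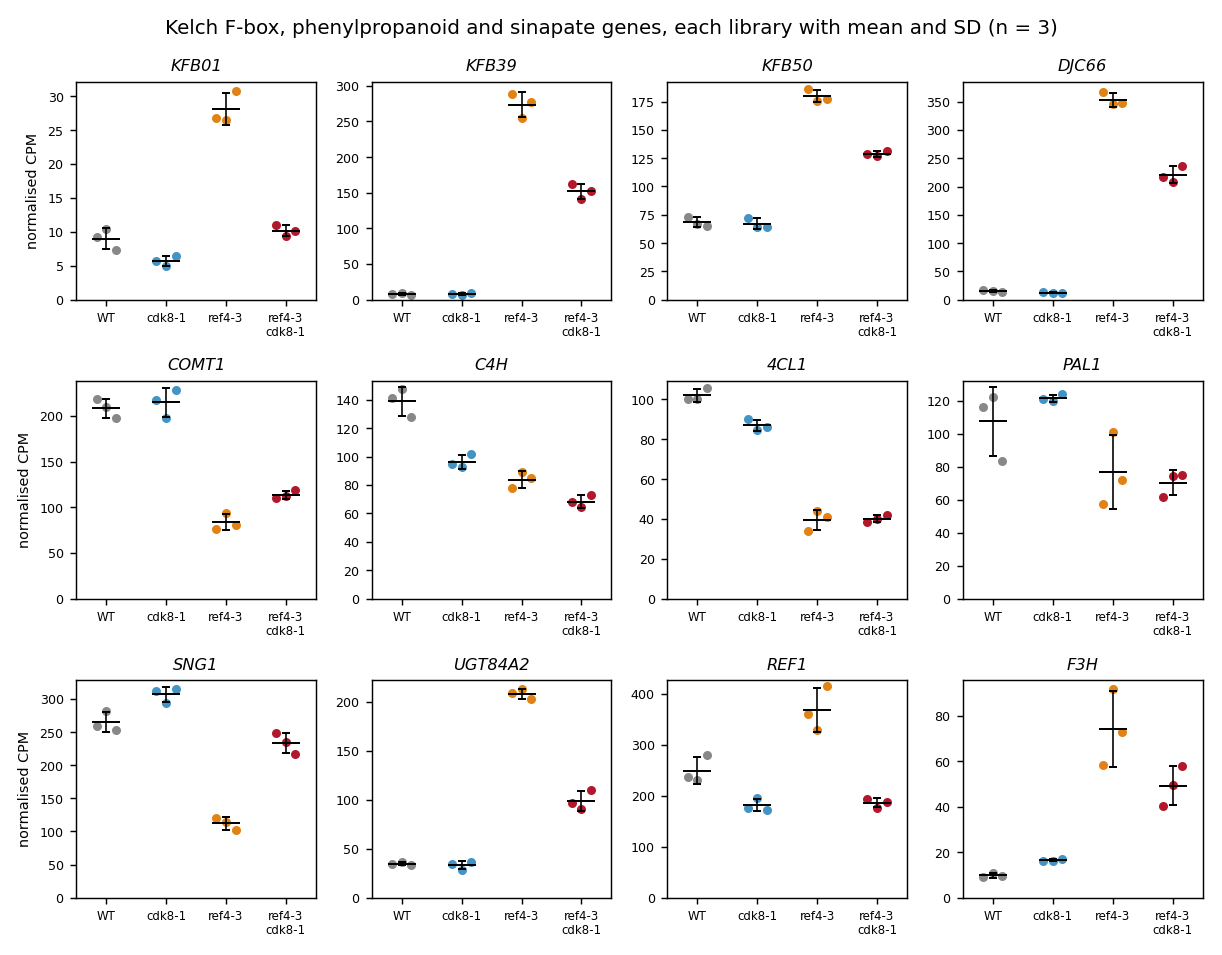
Normalised CPM (y axis, from 0) of 11 Kelch F-box, phenylpropanoid, sinapate and flavonoid genes and of DJC66 in each library of WT, cdk8-1, ref4-3 and ref4-3 cdk8-1 (x axis), with the mean and SD over 3 libraries. KFB39 stays between 141 and 163 CPM in ref4-3 cdk8-1 against 7.84 on average in WT, and the groups at 4CL1 and PAL1 overlap between ref4-3 and ref4-3 cdk8-1.

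Smaller lists moved in both directions. In the circadian clock, 5 of 12 genes rose and 1 fell. PRR5 and PRR7, repressors that peak during the day, rose from 33.3, 30.9 and 31.5 to 63.7, 60.7 and 59.1 CPM (0.94 ± 0.059, adjusted p = 2.01e-09) and from 93.4, 83.9 and 94.4 to 175, 179 and 156 CPM (0.91 ± 0.079, adjusted p = 6.86e-08). GI rose by 0.36 ± 0.074, CCA1 by 1.22 ± 0.26 and PRR9 by 1.07 ± 0.36, and ELF4 fell (-0.26 ± 0.082), a call lost under some alternatives. All libraries were taken at 1 time of day. Among 10 flowering genes 4 rose and 1 fell. MAF4 and MAF5, relatives of the floral repressor FLC, rose by 1.84 ± 0.28 and 1.68 ± 0.33. The activator gene SOC1 rose by 0.34 ± 0.056 and the repressor gene SVP by 0.37 ± 0.064, while FLC (0.41 ± 0.27) did not pass. MAF2 fell (-0.19 ± 0.068), a call lost under other settings.

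Of 7 phosphate starvation genes 4 rose and none fell, among them SPX1 (0.96 ± 0.13), MGD2 (0.75 ± 0.16) and SQD1 (0.28 ± 0.062). Among 9 senescence genes 2 rose and 3 fell. SAG13 went from 80.7, 112 and 159.8 to 37.5, 23.1 and 28.8 CPM (-1.98 ± 0.25, adjusted p = 7.31e-06), NAP fell (-1.02 ± 0.28) and SAG12 (-2.29 ± 0.75). The dark-induced SEN1 rose by 1.01 ± 0.23 and the chlorophyll breakdown gene PAO by 0.23 ± 0.064. Of 9 reference genes GAPC2 rose (0.31 ± 0.064) and the others, from UBQ10 to ACT2, did not pass. Phloem markers SUC2 (0.01 ± 0.084) and APL (0.11 ± 0.099) did not pass and SEOR1 fell (-0.33 ± 0.11), a call lost without 2 single libraries. The guard cell markers FAMA, KAT1 and MYB60 did not pass, with changes from 0.04 to 0.12. PYK10, a glucosidase known from roots, rose by 0.39 ± 0.14, a call lost in 6 alternatives.

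To see whether these changes need the ref4-3 mutation, the loss of CDK8 was also measured in cdk8-1 against WT, a comparison that shares no library with the one above. There 3758 genes were called (19.8%), 1526 higher (8.06%) and 2232 lower (11.8%). Higher in both backgrounds were 976 genes, which is 32.4% of the rises in ref4-3 and 64.0% of those in WT. Lower in both were 1559, or 48.3% of the falls in ref4-3 and 69.8% of those in WT. In opposite directions were 35 and 13 genes. Across the 18935 genes, which are not independent replicates, both sets of changes correlated with Pearson's r of 0.728 and Spearman's rho of 0.570, as a description.

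The difference between both effects was then tested for every gene, as the change in ref4-3 minus the change in WT. It passed for 971 genes (5.13%), with 582 (3.07%) higher in the ref4-3 background and 389 (2.05%) lower. With library totals alone in place of TMM, 392 were higher and 518 lower. Of the 971, 532 had both effects of the same sign and 439 of opposite sign, and in 724 the effect in ref4-3 was the larger in size. The count depended on single libraries, with 540 genes without cdk8-1 replicate 2, 620 without WT replicate 2 and 626 without ref4-3 cdk8-1 replicate 1.

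**Figure D5:**
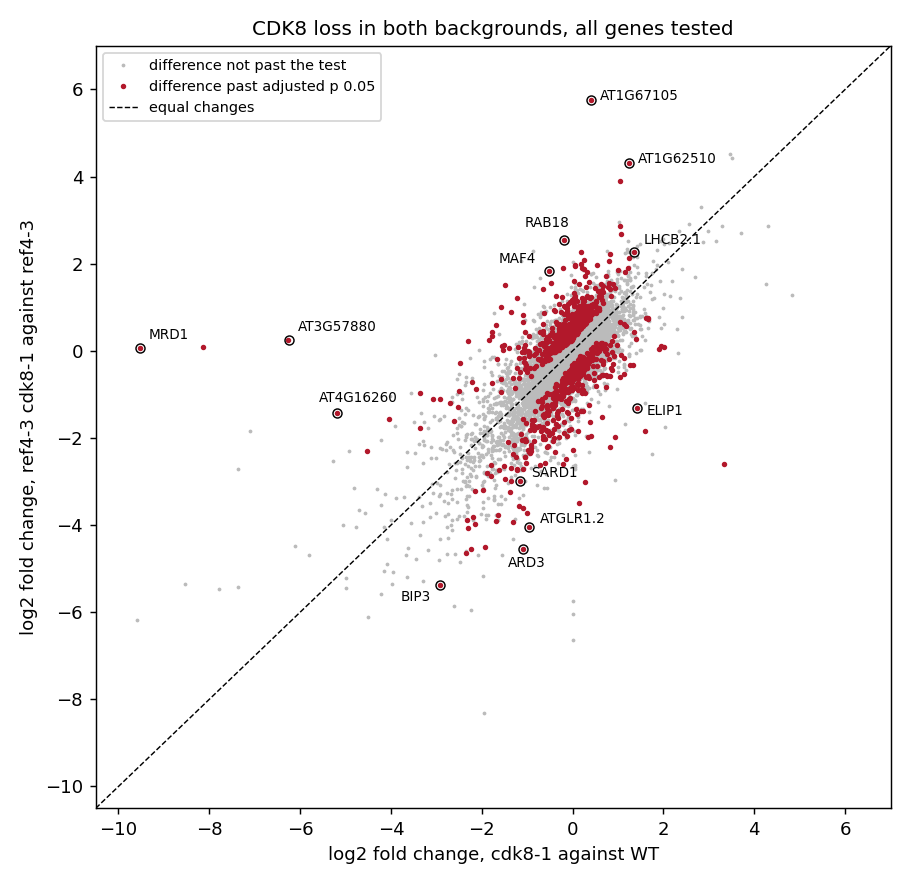
Log2 fold change with loss of CDK8 in ref4-3 (y axis) against that in WT (x axis) for 18935 genes, from 3 libraries a group. Red points are the 971 genes whose difference passed adjusted p 0.05, and the dashed line marks equal changes. Most points follow the line from lower left to upper right, while MRD1 and AT3G57880 lie far to the left at a change near 0 in ref4-3.

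Salicylic acid synthesis fell more in ref4-3 than in WT. The difference passed for 9 of its 13 genes, all lower, and for 5 of the 15 genes of perception and outputs. The change of SARD1 was -2.98 ± 0.14 in ref4-3 and -1.15 ± 0.15 (adjusted p = 2.81e-05) in WT, a difference of -1.83 ± 0.21 (adjusted p = 0.000106). The libraries stood at 24.95, 22.3 and 24.6 CPM in WT and 9.95, 14.3 and 8.25 in cdk8-1, so that both cdk8-1 genotypes ended at similar levels, 10.8 and 8.03 on average. ICS1 stood at 20.8, 15.3 and 23.2 CPM in WT and 13.7, 15.7 and 15.1 in cdk8-1, a change of -0.42 ± 0.14 (adjusted p = 0.0502), and its difference was -1.37 ± 0.20 (adjusted p = 0.000617). WRKY38 and DLO1 differed by -2.33 ± 0.43 (adjusted p = 0.00438) and -2.57 ± 0.62 (adjusted p = 0.0206). PR1 fell, with changes of -3.72 ± 0.34 in ref4-3 and -4.56 ± 0.43 (adjusted p = 6.37e-07) in WT, and its difference did not pass (0.84 ± 0.57, adjusted p = 0.453). LOX2 and WRKY53 fell in both backgrounds too, with differences that did not pass, -0.42 ± 0.25 (adjusted p = 0.372) and -1.04 ± 0.39 (adjusted p = 0.141).

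The folding genes of the endoplasmic reticulum differed in 7 of 9 cases, all lower in ref4-3. BIP2 stood at 378, 337 and 332 CPM in WT and 272, 301 and 326 in cdk8-1 (-0.22 ± 0.074, adjusted p = 0.0429), against the change of -1.02 ± 0.074 in ref4-3, with a difference of -0.80 ± 0.10 (adjusted p = 0.000235). Replication genes differed in 7 of 14 cases, again all lower: MCM4 changed by 0.10 ± 0.08 (adjusted p = 0.444) in WT, with a difference of -0.57 ± 0.11 (adjusted p = 0.0064). The KFB genes KFB01, KFB39 and KFB50 differed by -0.81 ± 0.19 (adjusted p = 0.0174), -0.88 ± 0.19 (adjusted p = 0.00958) and -0.46 ± 0.092 (adjusted p = 0.00721). In cdk8-1 KFB39 stood at 8.43, 6.28 and 9.31 CPM, overlapping the WT libraries at 7.49, 9.304 and 6.73. UGT84A2 differed by -1.02 ± 0.12 (adjusted p = 0.000131), with 34.6, 28.7 and 36.2 CPM in cdk8-1 and 34.3, 36.03 and 33.3 in WT. Flavonoid genes differed in 5 of 19 cases, all lower. F3H rose in WT by 0.76 ± 0.19 (adjusted p = 0.00754) and fell in ref4-3, a difference of -1.34 ± 0.23 (adjusted p = 0.00233).

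In the other direction, the antenna genes rose more in ref4-3. The difference passed for 10 of the 14. LHCB2.1 stood at 638, 609.9 and 542 CPM in WT and 1500.4, 1532 and 1552 in cdk8-1 (1.36 ± 0.083, adjusted p = 2.82e-09), and its difference was 0.92 ± 0.12 (adjusted p = 0.000192). Cold and abscisic acid genes differed in 6 of 19 cases, all higher. RAB18 was one of them, from 10.2, 6.85 and 6.48 CPM in WT and 7.59, 6.18 and 6.83 in cdk8-1 (-0.19 ± 0.33, adjusted p = 0.752), with a difference of 2.74 ± 0.39 (adjusted p = 0.00052). RD29A and COR47 differed by 0.77 ± 0.12 (adjusted p = 0.00147) and 0.60 ± 0.084 (adjusted p = 0.000499), while the difference at KIN1 did not pass (0.58 ± 0.33, adjusted p = 0.35). PIP1;1 (0.70 ± 0.087, adjusted p = 0.000166), EXPA11 (0.92 ± 0.17, adjusted p = 0.00413) and IAA7 (0.76 ± 0.16, adjusted p = 0.0101) rose more in ref4-3 as well. SNG1 differed by 0.84 ± 0.099 (adjusted p = 0.000109), from 259, 281 and 253 CPM in WT to 312, 295 and 315 in cdk8-1.

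Among genes called for the difference with a mean of at least 5 CPM over the 12 libraries of these 4 genotypes, the greatest differences were at 2 genes that were nearly silent in the cdk8-1 single mutant. MRD1, a gene that responds to methionine, stood at 27.9, 31.4 and 27.8 CPM in WT, 31.9, 26.8 and 32.9 in ref4-3 and 31.7, 32.3 and 31.4 in ref4-3 cdk8-1. In cdk8-1 it had 1 count in all 3 libraries together, a WT to cdk8-1 ratio of 985 (95% counting interval 176 to 38962). AT3G57880, a calcium-dependent lipid-binding protein gene, stood at 22.03, 19.9 and 21.04 CPM in WT, 0.253, 0.369 and 0.177 in cdk8-1, 23.8, 23.7 and 26.5 in ref4-3 and 30.4, 29.02 and 27.9 in ref4-3 cdk8-1, a difference of 6.49 ± 0.21 (adjusted p = 1.35e-12). Both were expressed in the double mutant, which carries the same allele, and whether the cdk8-1 line differs from the others outside CDK8 was not tested. Next under this limit was the glycosyl hydrolase gene AT4G16260 with 3.78 ± 0.33 (adjusted p = 3.64e-06), at 118, 97.4 and 141 CPM in WT, 2.45, 2.49 and 4.79 in cdk8-1, 11.5, 11.8 and 11.4 in ref4-3 and 4.86, 4.001 and 4.16 in the double mutant. AT1G62510, described above, differed by 3.07 ± 0.43 (adjusted p = 0.000494). The non-coding AT1G67105 had a greater difference than either, 5.36 ± 1.00 (adjusted p = 0.00438), at a mean below the limit.

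At the lower end, under the same limit, ARD3, an enzyme gene of methionine salvage, differed by -3.45 ± 0.49 (adjusted p = 0.000511). It stood at 7.399, 5.58 and 8.500 CPM in WT, 2.45, 4.799 and 2.84 in cdk8-1, 54.5, 40.8 and 52.2 in ref4-3 and 1.36, 2.16 and 2.77 in ref4-3 cdk8-1, highest in ref4-3 among these 4 genotypes. The glutamate receptor gene ATGLR1.2 differed by -3.08 ± 0.67 (adjusted p = 0.0124) and was likewise highest in ref4-3, with a WT mean of 1.05 CPM and 15.9, 17.1 and 24.6 CPM in ref4-3 against 1.64, 0.635 and 1.24 in the double mutant. AT2G24210, a terpene synthase gene, differed by -3.02 ± 0.74 (adjusted p = 0.0233), though 1 double mutant library was far below the other 2, at 0.572, 7.49 and 7.52 CPM. ELIP1 differed by -2.74 ± 0.46 (adjusted p = 0.00204), as it rose by 1.43 ± 0.45 in WT from 0.8604, 0.423 and 1.09 to 2.19, 2.58 and 1.68 CPM and fell in ref4-3.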

How the data were processed

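Per the labels' protocols, total RNA of pooled rosettes was made into libraries with a stranded kit for polyadenylated RNA. The submitters' processing notes name Trimmomatic, TopHat2 2.1.0, HTSeq 0.6.1 and edgeR, and the build TAIR10. The strand setting of the counting is not given in the sources used here, nor is the annotation release, so reads of genes that overlap on opposite strands may not be told apart. The deposited table holds raw counts, as whole reads assigned to each gene, which the authors left unnormalised. Its 5 rows of reads in no gene stayed out of sizes and tests: relative to gene counts, reads outside any feature came to 0.667 to 1.05%, reads of ambiguous origin to 1.63 to 6.67% and reads aligned at several places to 2.37 to 6.62%.

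Columns were matched to samples by name. Genes above 1 CPM in at least 3 of 15 libraries were kept (18935). Counts were scaled by TMM and fitted with edgeR 4.0.16 (R 4.3.3) in 1 quasi-likelihood model of genotype over all 15 libraries, with prior count 0.125 and Benjamini-Hochberg adjustment over all genes. Each SE is the log2 change divided by the root of its F statistic. The biological coefficient of variation had a median of 6.73%. Library totals ran from 9573567 to 16803904 gene counts. No replicate pair agreed within sampling noise (chi-square per degree of freedom 2.67 to 14.7), and p-values measure the spread between pools of 5 rosettes. Groups with 1 to 3 counts got a ratio with an exact 95% interval for counting error alone.

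The 35 lists (365 genes, 342 tested, 230 called) and the named genes were chosen with earlier results of these data known. Named by rule are CDK8, MED5B and DJC66, the 12 greatest rises and falls (called, at least 5 CPM on average, no overlap), up to 3 called members of each list with the smallest adjusted p, and the 4 greatest differences each way between both CDK8 effects (called, at least 5 CPM on average over 12 libraries), in all 114 genes. Other list members are named as examples. Gene positions and products came from TAIR10.1, where 32834 of 33601 genes were found. Figures were drawn and other steps run with Python 3.11.15 and pandas 2.3.3. Alternatives were other scaling, filters, fits, DESeq2 1.42.0, limma 3.58.1 with voom, and leaving out libraries.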

Additional observations from a re-analysis of the deposited data

Results flagged for a closer look

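Of 114 named genes, 48 had an effect of CDK8 loss in ref4-3 that differed from the effect in WT by edgeR's test of the difference (adjusted p under 0.05 over 18935 genes, of which 5.13% passed). Values are the log2 change in ref4-3 minus that in WT, with 3 libraries in each of the 4 genotypes. In salicylic acid and WRKY genes the difference was negative at SARD1 (-1.83), EDS5 (-1.32), DLO1 (-2.57), PAD4 (-1.22) and WRKY38 (-2.33). Folding genes of the endoplasmic reticulum had negative values too, namely BIP3 (-2.45), BIP2 (-0.80) and BIP1 (-0.58). The same sign was found at the Kelch F-box genes KFB01 (-0.81), KFB39 (-0.88) and KFB50 (-0.46), the replication genes MCM4 (-0.57), MCM6 (-0.43) and RNR1 (-0.37), and UGT84A2 (-1.02), REF1 (-0.53), LTP6 (-0.57) and ELIP1 (-2.74). Positive were the light-harvesting genes LHCB2.1 (0.92), LHCB2.2 (0.89) and LHCB1.2 (0.83), the cold genes RD29A (0.77) and COR47 (0.60) and the growth genes PIP1;1 (0.70), PIP2;1 (0.57), IAA7 (0.76), IAA3 (0.40), EXPA11 (0.92) and XTH4 (0.46). Positive as well were SNG1 (0.84), COMT1 (0.40), LTP5 (0.63), PRR5 (0.37), SOC1 (0.39), MAF4 (2.35), SEN1 (2.58) and PR4 (0.99). PR4 fell in both backgrounds, less so in ref4-3.

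Among genes named for the size of their change, positive differences were found at MRD1 (9.59), AT3G57880 (6.49), AT1G67105 (5.36), AT4G16260 (3.78), AT1G62510 (3.07), AT2G16367 (1.84) and AT4G36850 (1.62). Negative ones were found at ARD3 (-3.45), ATGLR1.2 (-3.08), AT2G24210 (-3.02) and AT5G24200 (-2.29).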

How the results depend on the processing

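The count of genes changed by loss of CDK8 in ref4-3 ran from 5507 (DESeq2) to 6741 (without ref4-1 replicate 3, the library farthest from its group, an alternative chosen after seeing the data), and from 5198 to 5557 when 1 of the 6 libraries was left out. Called in the same direction as in the reported fit were 5044 to 5280 genes without a single library and 5456 with DESeq2. The count for cdk8-1 against WT ran from 2779 to 3170 without single libraries. The difference between both CDK8 effects depended most on single libraries: 540 to 973 genes in all, 332 to 559 higher and 208 to 414 lower, and 1366, 810 and 556 without ref4-1 replicate 3, which is in neither CDK8 effect but shares the estimate of spread. Replicate numbers did not pair the samples: same-numbered ref4-3 and ref4-3 cdk8-1 libraries deviated from their group means with correlations of 0.1004, 0.043 and 0.026, and those of WT and cdk8-1 with 0.056, -0.135 and -0.067, and not every library correlated best with its own number. A replicate block gave 6305 genes for ref4-3 cdk8-1 against ref4-3, 3798 for cdk8-1 against WT and 1039 for the difference, with 233 list members and 112 of 114 named genes called. Of 1938 values of named genes under 17 alternatives, 1894 kept direction and side of the threshold, none turned direction and 44 lost the call. These 44 were at HSP101, SEOR1, PYK10, AT3G57880, MED16, CESA7, CYCC1;1 and CYCC1;2, and the cause was not tested. At an unadjusted p under 0.05 the 3 comparisons had 7859, 5921 and 3704 genes. Genes with few counts limit precision most, as at PDF1.2B and IAA6.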

Other observations

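Families named in the annotation were counted after their values had been seen, so they support nothing beyond these counts, which stand against 15.9% of all genes called higher and 17.0% lower. Of 29 cysteine-rich receptor-like kinase genes 21 fell and 3 rose, with a median of -1.43. CRK6 stood at 79.97, 60.1 and 127 CPM in ref4-3 and 5.65, 4.699 and 5.55 in ref4-3 cdk8-1, a change of -4.08 ± 0.34 (adjusted p = 3.89e-08), and CRK7 at 55.4, 43.7 and 79.2 and 4.22, 3.37 and 4.67 (-3.87 ± 0.25, adjusted p = 2.06e-09). CRK21 went the other way, from 17.8, 16.81 and 14.6 to 36.5, 37.3 and 34.5 CPM. Of 45 receptor-like protein genes, whose products sense microbes at the cell surface, 28 fell and none rose, with a median of -0.80. RLP23, which encodes the receptor of a peptide from necrosis-inducing microbial proteins, went from 91.6, 67.7 and 128 to 5.503, 3.75 and 5.55 CPM (-4.29 ± 0.32, adjusted p = 1.34e-08). RLP23 overlaps another annotated gene. Of 66 genes annotated as TIR-NBS-LRR, the class of intracellular immune receptors, 30 fell and 1 rose, with a median of -0.25. Of 41 WRKY genes 26 fell and 3 rose, and WRKY51 went from 9.65, 8.81 and 18.7 to 0.643, 0.445 and 0.511 CPM. These families fell in cdk8-1 against WT too. There 11 cysteine-rich receptor-like kinase genes fell and 3 rose, and 21 receptor-like protein genes fell and none rose. Of the TIR-NBS-LRR genes 21 fell and 2 rose there, and of the WRKY genes 19 fell and 2 rose. Among the genes named here, the difference between both CDK8 effects passed at CRK21 (0.89 ± 0.12, adjusted p = 0.000415) and narrowly at CRK6 (-1.78 ± 0.51, adjusted p = 0.04997). It did not pass at CRK7 (adjusted p = 0.186), RLP23 (adjusted p = 0.112) or WRKY51 (adjusted p = 0.561).

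Transport and detoxification genes followed. Of 15 genes for multidrug resistance-associated transporters 10 fell and none rose, among them ABCC4 at 96.95, 94.999 and 116 CPM in ref4-3 and 32.9, 35.6 and 35.8 in ref4-3 cdk8-1 (-1.56 ± 0.13, adjusted p = 3.33e-08). Of 34 glutathione S-transferase genes 15 fell and 4 rose, with GSTU10, which overlaps another annotated gene, falling (-2.63 ± 0.27). Of 17 berberine bridge-like oxidase genes 9 fell and 1 rose, with a median of -1.04. In cdk8-1 against WT, 5 of the transporter genes and 8 of the oxidase genes fell and none rose. Of the glutathione S-transferase genes 16 fell and 3 rose there. Of the families counted, others rose more often than they fell. Of 42 SAUR-like genes, a class that auxin induces, 18 rose and 8 fell, with a median of 0.49, and 8 rose and 6 fell in cdk8-1 against WT. The difference passed at AT2G46690 (0.44 ± 0.11, adjusted p = 0.0302), which rose in ref4-3 cdk8-1. It did not pass at AT4G38860 (adjusted p = 0.415), which rose as well, or at AT3G12830 (adjusted p = 0.214), which fell (-1.23 ± 0.16). Of 16 remorin genes, for proteins of membrane domains, 9 rose and none fell with a median of 0.46, against 1 and 2 in cdk8-1. The difference itself passed at AT3G61260 (0.66 ± 0.13, adjusted p = 0.00737) and AT1G67590 (0.84 ± 0.17, adjusted p = 0.00709), and not at AT3G57540 (0.43 ± 0.24, adjusted p = 0.347). Of 14 late embryogenesis abundant genes, whose products protect drying cells, 6 rose and 1 fell, with a median of 0.32, against 2 and 2 in cdk8-1. Unequal counts of calls do not test a difference between backgrounds. The difference did not pass at AT3G17520 (0.49 ± 1.14, adjusted p = 0.865), AT2G23120 (0.12 ± 0.11, adjusted p = 0.592) or AT3G02480 (1.07 ± 1.18, adjusted p = 0.674). AT2G23120 overlaps another annotated gene. AT3G17520 had only 0 counts in WT and 2 in cdk8-1, and AT3G02480 had 8 and 18. At AT3G17520 the change in cdk8-1 against WT alone had an SE of 2.48, so the 1.14 given above understates the uncertainty of the difference.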
